A study of Mus musculus with 4 samples.

Results

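Cytosolic ribosomal protein genes encode the proteins that, with ribosomal RNA, form the small (Rps genes) and large (Rpl genes) subunits of the ribosome outside mitochondria. Their members were taken by symbol, as Rpl or Rps followed by a number with an optional a or x and an optional l, together with Rpsa, Rplp0, Rplp1 and Rplp2, provided that at least 1000 UMIs (counts of distinct RNA molecules) were summed over the 4 libraries. Of the 31040 genes in the files 81 had such a symbol and 78 passed the limit, 31 of the small and 47 of the large subunit. The 3 that did not were Rpl3l with 6 UMIs, Rpl39l with 1 UMI and Rpl10l with none, while the least counted member, Rpl36al, had 40443 UMIs and the most counted, Rpl13, had 795273. Rps3a1, Fau and Rack1 also encode ribosomal components but fall outside the symbol rule.

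The libraries come from organoids, epithelial cultures grown from intestinal crypts, in which stem cells divide and mature. The crypts were those of 2 mice aged 10 weeks, both homozygous for floxed Cbl and Cblb (Cbl flox/flox and Cbl-bflox/flox in the labels) and carrying R26Cre ERT2, a Cre recombinase expressed from the Rosa26 locus that acts only with a tamoxifen ligand. Knockout organoids received 400 nM 4-hydroxytamoxifen for 3 days to delete both genes and control organoids did not, so that the deletion, the ligand and active Cre cannot be told apart. Each mouse gave 1 control and 1 knockout library, so every comparison has n = 2 per group, and control 1 and knockout 1 share mouse 1. Cbl and Cblb encode ubiquitin ligases that mark activated receptor tyrosine kinases for degradation.

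Ribosomal protein mRNAs carry at their start a short run of pyrimidines, the terminal oligopyrimidine (TOP) tract, through which growth signals acting via mTORC1 adjust their translation and stability. Cells that divide make many ribosomes, so these mRNAs are a large part of the mRNA of proliferating crypt cells and a smaller part in mature epithelium. Members are made in nearly equal numbers as proteins, and single members such as RPL5 and RPL11 also act outside the ribosome as inhibitors of MDM2.

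The sequences around the starts of the 5 members with the lowest and the 5 with the highest knockout change in all cells are shown because the TOP tract lies at the start. They come from RefSeq (build GRCm38.p6), run from 60 bases before to 15 bases after the recorded start, and have in capitals the longest run of C or T between 20 bases before and 15 bases after it.
Rpl27, chr11:101442185-101442259, plus strand: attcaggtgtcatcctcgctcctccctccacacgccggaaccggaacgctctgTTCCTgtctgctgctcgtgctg
Rpl36al, chr12:69184053-69184127, minus strand: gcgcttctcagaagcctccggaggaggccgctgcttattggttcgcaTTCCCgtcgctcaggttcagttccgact
Rps27, chr3:90213634-90213708, minus strand: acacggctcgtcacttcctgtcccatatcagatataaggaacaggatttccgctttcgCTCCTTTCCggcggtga
Rps28, chr17:33824548-33824622, minus strand: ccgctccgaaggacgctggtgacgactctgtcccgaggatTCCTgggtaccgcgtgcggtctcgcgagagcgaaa
Rpl39, chrX:37085208-37085282, minus strand: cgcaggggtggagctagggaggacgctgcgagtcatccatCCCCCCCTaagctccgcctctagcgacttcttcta
Rpl15, chr14:18270972-18271046, minus strand: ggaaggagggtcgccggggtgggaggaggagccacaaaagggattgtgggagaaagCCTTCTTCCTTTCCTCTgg
Rpl11, chr4:136053379-136053453, minus strand: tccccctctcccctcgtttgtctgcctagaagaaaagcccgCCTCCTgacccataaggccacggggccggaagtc
Rps27l, chr9:66946026-66946100, plus strand: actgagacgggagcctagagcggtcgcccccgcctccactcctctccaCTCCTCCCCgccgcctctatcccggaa
Rpl6, chr5:121204441-121204515, plus strand: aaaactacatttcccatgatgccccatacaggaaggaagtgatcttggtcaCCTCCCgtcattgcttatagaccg
Rpl14, chr9:120571457-120571531, plus strand: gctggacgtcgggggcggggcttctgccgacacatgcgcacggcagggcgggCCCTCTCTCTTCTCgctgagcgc
The first 5 are the lowest members and the last 5 the highest. The run had 5 pyrimidines in Rpl27 and Rpl36al, 9 in Rps27, 4 in Rps28 and 8 in Rpl39, against 17 in Rpl15, 6 in Rpl11 and Rpl6, 9 in Rps27l and 14 in Rpl14. GENCODE places the start of Rpl27 53 bases further downstream, outside the printed stretch, so that a run at that start is not shown. The starts also lie 180 bases apart for Rpl39, 405 for Rpl15 and 73 for Rpl14, and their runs carry the same doubt. Smaller distances were 35 bases for Rpl11, 20 for Rpl6, 16 for Rpl36al and 3 for Rps27. Rps27l has a second RefSeq start, not printed here, with a run of 4. Of the 58 members with an entry in the RefSeq-derived table, 28 (48.3%) had a run of at least 8 C or T on the gene's strand, against 16.6% of all 27025 genes in it. The motif CCGGAAGT, searched on both strands from 100 bases before to 50 after the start, stood in 10 of the 58 (17.2%) and in 3.47% of all genes. A match says only that the letters are present.

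The 5602 deposited barcodes left 5359 cells after filtering, 1148 and 682 in controls 1 and 2 and 1627 and 1902 in knockouts 1 and 2, with median depths of 16071 to 27457.5 UMIs per cell, lower in the knockout of each mouse. Cbl was at 17.0 and 19.9 CPM (a gene's UMIs scaled to a common library total) across the controls and at 12.3 and 10.5 CPM across the knockouts, and Cblb at 8.51 and 3.93 CPM against 3.35 and 0.464 CPM. Only 2 barcodes occurred in more than 1 library. Summed marker genes of immune cells stood at 2.91 to 5.21 CPM, of mesenchyme at 0 to 0.174, of endothelium at 0.229 to 0.522 and of glia at 0.549 to 2.05, with erythroid markers at 0 in all 4 libraries. Cells were clustered with the ribosomal genes left out, and clusters were named from marker genes. The classes named crypt base stem-like, cycling-like, goblet-like, fetal-like, Paneth-like, enteroendocrine-like and enterocyte-like had at least 10 cells in every library and were tested. A tuft-like cluster was too small and 3 clusters stayed unnamed.

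Members supplied 26.9% and 22.6% of all UMIs in controls 1 and 2 and 26.005% and 24.3% in knockouts 1 and 2. The groups overlapped, and the difference of the means was 0.40 points (24.7% ± 3.1 against 25.1% ± 1.22, SD, n = 2; two-sided exact permutation p = 1), with −0.93 points in mouse 1 and +1.73 in mouse 2. The make-up of the cultures differed as well. Enterocyte-like cells, which held few of these mRNAs, were 20.99% and 38.6% of control cells and 13.0% and 15.1% of knockout cells. Cycling-like cells, which held many, were 26.1% and 23.6% of control cells and 34.4% and 36.8% of knockout cells. With the UMIs of each class kept at the proportions of the same mouse's control, the knockout shares came to 24.6% and 21.9%, below the control of the same mouse in both.

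Among the tested classes the share was highest in crypt base stem-like cells, next in cycling-like and then in goblet-like cells, an order seen in all 4 libraries. It was 28.8% to 32.1% in stem-like, 27.5% to 30.1% in cycling-like and 24.7% to 27.7% in goblet-like cells. The other classes lay between 10.3% and 19.3% and overlapped one another. The stem-like class is 1 cluster whose leading genes were Olfm4, a stem marker, and DNA replication genes such as Mcm2, Mcm3 and Mcm4. Its summed stem markers were at 5154, 2640, 6549 and 3750 CPM in controls 1 and 2 and knockouts 1 and 2, against 4135, 1898, 4812 and 2376 CPM in cycling-like cells of the same libraries. Enterocyte-like cells had 16.2%, 10.3%, 15.4% and 10.7% in controls 1 and 2 and knockouts 1 and 2, lower in both libraries of mouse 2. Different clusters held this class in the mice: the cluster led by Apoa1, with a share of 6.89% to 11.0%, held 68 of 241 and 66 of 211 cells in mouse 1 and 219 of 263 and 221 of 288 in mouse 2, and the cluster led by Fabp6 had a share of 20.6% to 24.3%. Each of the first 3 classes exceeded every class after it in 4 of 4 libraries. Over 21 pairs of classes the smallest exact sign-flip p that 4 libraries allow is 0.125, which these pairs reached (adjusted p = 0.175). That test treats the 4 libraries as independent, although they come from 2 mice, so the replication is smaller than it assumes.

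**Figure D1:**
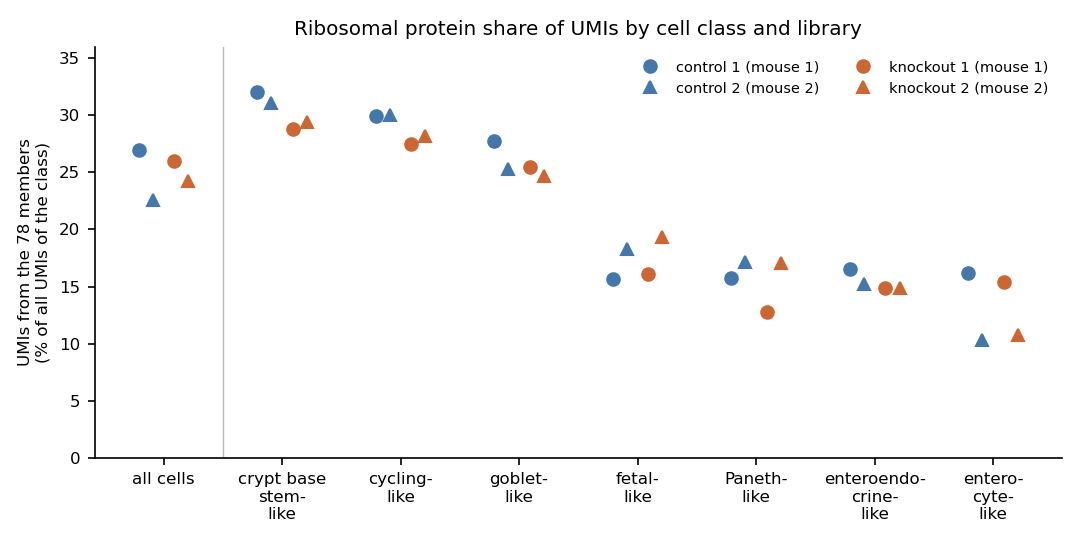
Share of UMIs (percent, vertical axis from 0) that came from the 78 members, for all cells and 7 classes, with 1 point per library (blue control, orange knockout, circles mouse 1, triangles mouse 2). Both knockouts lie below both controls in the crypt base stem-like, cycling-like and enteroendocrine-like classes, while the all-cell points overlap.

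In the 3 tested classes with the highest share the knockout of each mouse lay below its control. Stem-like cells had 32.1% and 31.1% in controls against 28.8% and 29.5% in knockouts, without overlap (31.6% ± 0.709 against 29.1% ± 0.455, SD, n = 2; −2.42 points; two-sided exact permutation p = 0.333, the smallest that 2 against 2 libraries allow). Cycling-like cells had 29.9% and 30.1% against 27.5% and 28.2%, again without overlap (−2.18 points, p = 0.333, exact permutation). Goblet-like cells had 27.7% and 25.3% against 25.5% and 24.7%, where knockout 1 lay above control 2 (−1.45 points, p = 0.667, exact permutation). None of these differences could pass a threshold of 0.05 in this design. The stem-like class rested on 14 cells in control 2, against 102 to 285 in the other libraries.

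Single clusters of these classes were compared in the same way, with no test. In the cycling-like cluster led by Cenpf and Top2a the share was 29.7% and 29.3% in controls and 27.0% and 27.2% in knockouts. In the cycling-like cluster led by Slc7a11 and Phlda3, which held 389 of 699 cycling-like cells in knockout 2 but 32 of 300 in control 1, it was 29.4% and 30.4% against 28.1% and 28.3%. In the goblet-like cluster led by Atoh1 and Agr2 it was 29.3% and 27.3% against 25.9% and 24.9%, and in the other goblet-like cluster, led by Ccl9 and Ccl6, it was 25.8% and 24.5% against 24.4% in both knockouts. The cycling-like cluster led by histone genes overlapped between groups, with 31.4% and 30.02% against 30.3% and 30.2%. Neither that cluster nor the one led by Slc7a11 and Phlda3 had a listed cycling marker among its leading genes. Among cells of 20000 to 40000 UMIs, where depth was more alike, stem-like cells had 32.1% and 31.3% against 28.4% and 29.5%, and cycling-like cells 30.6% and 30.1% against 27.2% and 27.9%. Goblet-like cells of that depth had 27.1% and 24.4% against 24.96% and 24.5%, so that the difference was in mouse 1 and not in mouse 2.

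Enteroendocrine-like cells also had both knockouts below both controls, with 16.6% and 15.2% against 14.9% and 14.8% (−1.03 points, p = 0.333, exact permutation), from 10 cells in control 2. Fetal-like cells had Clu, Anxa1 and Ly6d among their leading genes but also the goblet genes Zg16 and Clca1. Goblet markers summed there to 52057, 16987, 31798 and 24204 CPM in controls 1 and 2 and knockouts 1 and 2. That is above goblet-like cells in mouse 1 (29621 and 24669 CPM) and below them in mouse 2. The fetal-like markers summed to 3758, 6829, 1604 and 5993 CPM, against 44.5, 112, 69.2 and 94.9 CPM in goblet-like cells. The share of fetal-like cells was 15.7% and 18.3% in controls and 16.1% and 19.3% in knockouts, higher in the knockout of each mouse (+0.75 points, p = 0.667, exact permutation). In mouse 1, with 14 and 11 cells, that direction turned with medians over cells (17.0% against 15.1%) and when the ribosomal genes entered the clustering (16.6% against 15.9%). Paneth-like cells had 15.8% and 17.1% against 12.8% and 17.1%, a difference carried by mouse 1. The enterocyte-like class differed by −0.20 points between groups and by more between the mice.

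Single members were tested with the edgeR quasi-likelihood test over all genes (Benjamini-Hochberg adjusted p under 0.05). Same-numbered libraries share a mouse, so a member is said to have risen or fallen where it passed in the model that has the mouse as a block. Results of the model with the group as its only term are given beside it, as those with the group alone. Each log2 difference is given as the knockout level less the control level, ± SE, on TMM-scaled counts, from the group-only model unless the block is named. Because of that scaling they differed from the plain CPM ratios of the members by a median of −0.06 in stem-like, −0.03 in cycling-like and −0.07 in goblet-like cells. No member rose in all cells or in a class under either model. Genes that rose were 4.1% in all cells, 0.205% in stem-like, 2.13% in cycling-like, 3.95% in goblet-like, 0.258% in fetal-like, 0.0151% in Paneth-like, 0.309% in enteroendocrine-like and 1.2% in enterocyte-like cells with the block. With the group alone they were 0.0821% in stem-like, 0.0386% in goblet-like, 0.014% in enteroendocrine-like and 0% in the other sets.

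In all cells 1 of 78 members fell, Rpl27, against 7.78% of all 13246 genes that fell. With the group alone 0 of 78 members and 0 of all genes passed (0%), and 2 members were lower at an unadjusted p under 0.05, where 1138 of the 13246 genes passed in either direction. DESeq2 with the block called 2 members lower, against 5.68% of genes. The median member change was −0.03, close to the −0.02 of all genes, 12 members were lower in both mice, against 33.8% of all genes, and 9 had both knockouts below both controls, against 19.1%. In the other direction 27 members were higher in both mice, against 39.6% of genes, and 8 had both knockouts above both controls, against 22.1%. In all cells 31 members had a positive change. In these sums, fewer cells of a class and less RNA per cell cannot be told apart.

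Rpl27, a protein of the large subunit (gene at chromosome 11, 101442298 to 101445529 in GRCm38, coding length 408 nucleotides), had the lowest change of all members. Its level in all cells was 620 and 472 CPM across the controls against 443 and 394 CPM across the knockouts, 71.4% and 83.3% of the same mouse's control. Both knockouts lay below both controls. Its change was −0.42 ± 0.15 with the group alone and −0.41 ± 0.10 with the block (edgeR adjusted p of 0.563 and 0.0449). With 1 library left out, its change with the group alone ran from −0.57 to −0.25.

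After Rpl27 the lowest members in all cells were Rpl36al, Rps27, Rps28, Rpl39, Rpl37a, Rpl37, Rpl35a, Rpl36a and Rpl36, with changes from −0.39 to −0.20. Control 1 carried a large part of several of these: without it the change was −0.05 for Rpl36, −0.04 for Rpl36a, −0.09 for Rpl35a and −0.09 for Rpl37. Rpl36al, an intronless paralog of Rpl36a, had 448 and 352 CPM across the controls against 302 and 323 CPM across the knockouts. Rps27, a zinc-finger protein of the small subunit, had 1715 and 1400 CPM against 1341 and 1160 CPM. Rps28, a small protein near the mRNA exit of the small subunit, had 1395 and 1133 CPM against 1079 and 1031 CPM. These 3 had no overlap between groups, whereas Rpl35a, Rpl36a and Rpl36 overlapped.

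At the other end stood Rpl15, Rpl11, Rps27l, Rpl6 and Rpl14, with changes from +0.14 to +0.22, none of which passed. Rpl15, which sits in the core of the large subunit, had 3976 and 3366 CPM across the controls against 4475 and 4294 CPM across the knockouts, without overlap (0.22 ± 0.11, adjusted p = 0.193 with the block, edgeR). Rpl11, one of the MDM2-binding members, had 3549 and 3010 CPM against 3837 and 3610 CPM, also without overlap (adjusted p = 0.350). Rps27l, a paralog of Rps27 known as a p53 target, had 732 and 769 CPM against 752 and 949 CPM, with overlap.

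In crypt base stem-like cells 8 of 78 members fell, against 0.636% of the 9749 genes tested. They were Rpl27, Rps27, Rpl36al, Rpl39, Rpl37a, Rps28, Rpl37 and Rpl36. The group alone called 2 of them lower, Rpl27 and Rps27, against 0.185% of genes. Over the whole set the median change was −0.20 (all genes −0.01), 60 members were lower in both mice, against 21.1% of genes, and 52 had both knockouts below both controls, against 14%. These counts are of members whose summed share already differed, so they are not separate evidence.

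Rpl27 in stem-like cells had 749 and 670 CPM across the controls against 492 and 484 CPM across the knockouts, 65.6% and 72.1% of the same mouse's control (−0.61 ± 0.11, adjusted p = 0.0329 with the group alone and 0.00386 with the block, edgeR). Rps27 had 1932 and 1850 CPM against 1463 and 1339 CPM, 75.7% and 72.4% (−0.49 ± 0.10, adjusted p = 0.0458 with the group alone and 0.00856 with the block). Rpl39, a short basic protein of the tunnel wall, had 2734 and 2518 CPM against 2068 and 2043 CPM (adjusted p = 0.107 with the group alone and 0.0306 with the block). All 3 had groups well apart, with no library of one group inside the range of the other. Without control 1 no member passed with the group alone, and without knockout 2 there were 9.

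In cycling-like cells 28 of 78 members fell, against 2.76% of the 11398 genes tested. With the group alone none passed (0% of genes; 17 members were lower at an unadjusted p under 0.05, where 847 genes passed in either direction). DESeq2 called 2 members lower without the block, against 0.273% of genes, and 6 with it, against 0.524%. The median change was −0.16 (all genes −0.00488), with 56 members lower in both mice, against 26.9% of genes, and 48 with both knockouts below both controls, against 15.4%. The smallest p belonged to Rpl27, Rps27, Rpl39, Rps28, Rpl35a and Rps12.

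Rpl27 in cycling-like cells had 714 and 651 CPM across the controls against 472 and 470 CPM across the knockouts, 66.1% and 72.1% of control (−0.57 ± 0.06 and adjusted p = 0.000992 with the block; −0.57 ± 0.10 and 0.314 with the group alone, edgeR). Rps27 had 1765 and 1771 CPM against 1349 and 1283 CPM (adjusted p = 0.00185 with the block, 0.449 with the group alone). Rps28 had 1472 and 1410 CPM against 1097 and 1152 CPM (adjusted p = 0.00550 with the block, 0.493 with the group alone). In each the 2 libraries of a group differed by less than the step between the groups.

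The stalk of the large subunit, which recruits elongation factors, was divided. Rplp1 fell in cycling-like cells, from 7025 and 7000 CPM to 5892 and 6149 CPM (adjusted p = 0.0170 with the block, 0.657 with the group alone, edgeR), and Rplp2 fell from 2812 and 2697 CPM to 2289 and 2495 CPM (adjusted p = 0.0448 with the block, 0.698 with the group alone). Rplp0, the longer protein on which both assemble, had 7669 and 8073 CPM against 7711 and 7905 CPM, with overlap. Rpsa, a small-subunit protein also known as the laminin receptor, had 5954 and 6102 CPM against 6009 and 6286 CPM, also with overlap.

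Rpl5 and Rpl11, which bind the 5S ribosomal RNA, did not fall in any class. In cycling-like cells Rpl5 had 2637 and 2353 CPM across the controls against 2779 and 2207 CPM across the knockouts, and Rpl11 had 3980 and 4065 CPM against 4079 and 4249 CPM. Rps6, the substrate of S6 kinase, had 3410 and 3503 CPM against 3462 and 3138 CPM. Rpl3, part of the peptidyl transferase centre, had 4133 and 4147 CPM against 3969 and 4087 CPM. Rpl3 was slightly lower in both mice and did not pass (−0.07 ± 0.10, adjusted p = 0.911 with the group alone and 0.450 with the block), Rpl11 was slightly higher in both, and Rpl5 and Rps6 moved in opposite directions in the 2 mice.

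**Figure D2:**
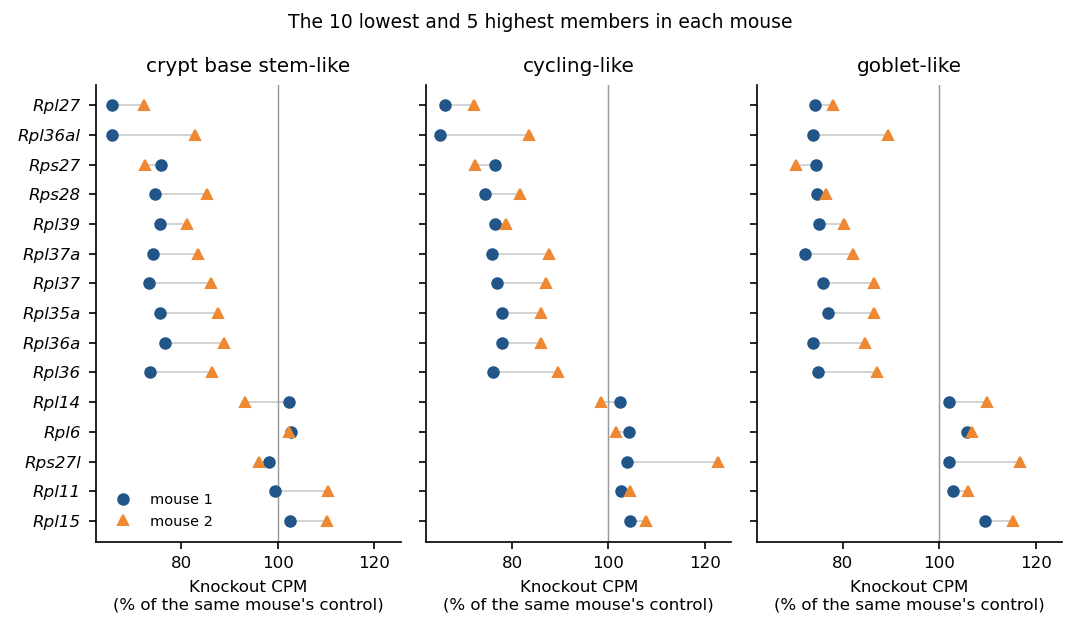
Level in the knockout as a percentage of the control of the same mouse (horizontal axis, CPM ratio) for the 10 members with the lowest and the 5 with the highest change in all cells, in 3 classes. Circles are mouse 1 and triangles mouse 2; the lowest members lie left of 100% in both mice, and Rpl27 is at 66.1% and 72.1% in cycling-like cells.

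In goblet-like cells 13 of 78 members fell, against 3.04% of the 10361 genes tested, and with the group alone 0 passed (0.00965% of genes; 21 members were lower at an unadjusted p under 0.05, where 1564 genes passed in either direction). Rps27 had 1945 and 1812 CPM across the controls against 1449 and 1275 CPM across the knockouts, 74.5% and 70.4% of control (−0.54 ± 0.11, adjusted p = 0.112 with the group alone and 0.00531 with the block, edgeR). Rps28 had 1510 and 1445 CPM against 1127 and 1107 CPM (adjusted p = 0.143 with the group alone and 0.00961 with the block). Both lay below the controls in both mice. The median change of the set was −0.16 (all genes −0.01), 44 members were lower in both mice, against 26.3% of genes, and 37 had both knockouts below both controls, against 16.9%.

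In enteroendocrine-like cells 1 member fell, Rpl37a, against 0.449% of the 7123 genes tested. It had 2614 and 3169 CPM across the controls against 1843 and 1888 CPM across the knockouts, from 1574, 538, 830 and 1345 UMIs (−0.78 ± 0.21, adjusted p = 0.998 with the group alone; −0.76 ± 0.16 and 0.000552 with the block, edgeR). Both knockouts lay below both controls. No member fell in the Paneth-like (0.0303% of genes, 0.0151% with the group alone), fetal-like (0.18%) or enterocyte-like classes (0.946%), where 21, 0 and 2 members had an unadjusted p under 0.05 and a lower level with the block. At that p 662 of 6602, 310 of 8904 and 909 of 9831 genes passed in either direction. The median change was −0.22 in Paneth-like, −0.23 in enteroendocrine-like, −0.02 in fetal-like and −0.01 in enterocyte-like cells.

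**Figure D3:**
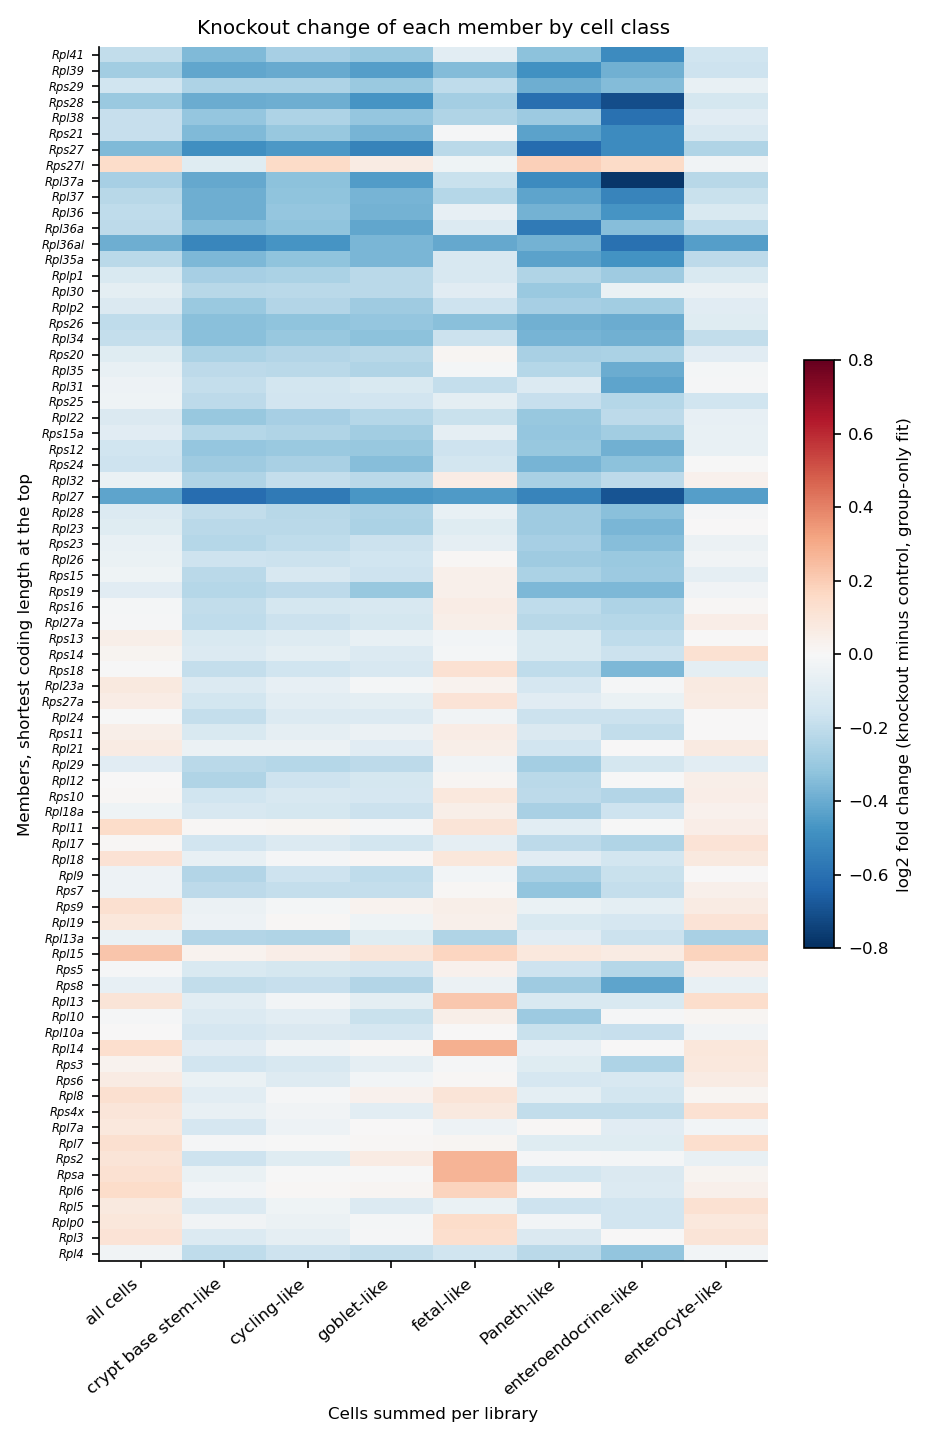
Log2 fold change (knockout minus control, group-only fit, colour scale) of 77 members (rows, shortest coding length at the top) in all cells and 7 classes (columns). Blue is lower in the knockout; Rpl27, Rps27 and Rpl36al stay dark across most columns, and Rps27l stands apart from its neighbours.

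The members lowest in one class were mostly lowest in the others. Rpl27, Rpl37 and Rps27 were among the 10 lowest in all 8 sets of cells (all cells and the 7 classes), and Rpl36al, Rpl37a, Rpl39 and Rps28 in 7 of them. The sets share cells with the all-cell sums and share libraries with one another. The mice share no library, and across the 78 members the change in mouse 1 and in mouse 2 had a Spearman correlation of 0.65 in all cells, 0.50 in stem-like, 0.59 in cycling-like and 0.64 in goblet-like cells, given as a description.

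The order of the members followed the length of the protein they encode. Across the 78 members the change and the coding length of the main transcript (GENCODE M21) had a Spearman correlation of 0.79 in all cells, and 0.66 to 0.78 in the 7 classes. It was 0.83 in mouse 1 and 0.55 in mouse 2 for all cells. In all cells the change had a correlation of 0.39 with the length of the whole transcript and of 0.34 with the mean level of the member. Other protein-coding genes were taken from a log2 CPM of 7 upwards, a lower limit that does not match them to the levels of the members. Among 1131 such genes the correlation of change with coding length was 0.07 in all cells. In the 7 classes it ran from −0.14 in fetal-like to 0.19 in stem-like cells. Members share libraries and scaling, so this is a description, with no test.

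Split by coding length into 3 groups of 26, a division made after the values were seen, the shortest members (75 to 396 nucleotides) had a median change of −0.18 and the longest (564 to 1257) of +0.09 in all cells. In stem-like cells the medians were −0.32 and −0.10, in cycling-like cells −0.28 and −0.04, and in goblet-like cells −0.31 and −0.03. Other genes with coding lengths in the range of the shortest members had a median of −0.06 in all cells, −0.04 in stem-like and −0.01 in cycling-like cells. Other genes in the range of the longest members had +0.07, +0.03 and +0.05. Of the 28 members that fell in cycling-like cells, 21 were among the shortest, 7 in the middle and 0 among the longest.

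Members that broke the order were Rps27l and Rpl27. Rps27l is as short as Rps27 (252 nucleotides of coding sequence each), yet in cycling-like cells it had 725 and 816 CPM across the controls against 753 and 1001 CPM across the knockouts (0.16 ± 0.18, adjusted p = 0.882 with the group alone and 0.269 with the block, edgeR). Rps27 fell in the same cells. Rpl27 had the lowest change although its coding length lies in the middle group. Rpl41, which encodes the shortest protein of the set (75 nucleotides), differed between the mice, with 73.1% of control in mouse 1 and 97.0% in mouse 2 in cycling-like cells. Reads of close paralogs or pseudogenes, such as those of Rps27 and Rpl36al, could be shared or dropped in the counting, whose handling of them is not given in the sources used here.

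**Figure D4:**
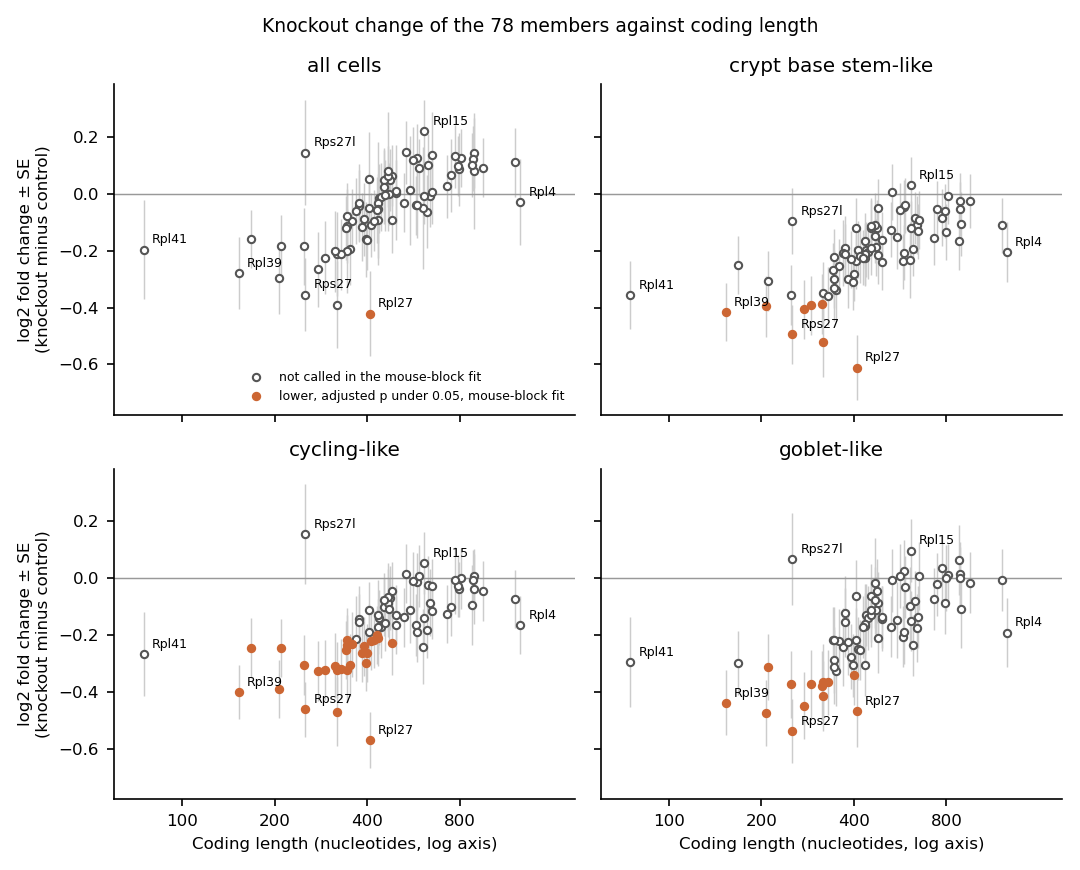
Log2 fold change (knockout minus control, group-only fit, bars ± SE) of each member against its coding length in nucleotides on a log axis, in all cells and 3 classes. Filled points fell in the fit with the mouse as a block (1, 8, 28 and 13 members); short members lie lowest, and Rps27l lies above members of its length.

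Both subunits had like proportions throughout. Large-subunit members had 1.24 to 1.37 times the UMIs of small-subunit members over all sets and libraries, and in cycling-like cells 1.26 and 1.24 times in controls and 1.27 and 1.25 times in knockouts. Pyrimidine runs near the recorded starts were also counted by length. A run of at least 8 stood in 57.1% of the 21 shortest members with an entry, 31.2% of the 16 middle ones and 52.4% of the 21 longest. Such a run need not lie at the start of the mRNA, so nothing follows for the TOP tract.

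Enterocyte-like cells were then compared with cycling-like cells of the same library. The enterocyte-like class pools the clusters led by Apoa1, by Fabp1 and by Fabp6, of which the last had none of the listed enterocyte markers among its leading genes. All 78 members were lower in enterocyte-like cells (edgeR, library as a block), against 40.2% of the 11676 genes tested that were lower and 37.2% that were higher. The median difference was −1.12. Rpl3 was lowest, at 1542, 875, 1485 and 1073 CPM in enterocyte-like cells of controls 1 and 2 and knockouts 1 and 2, against 4133, 4147, 3969 and 4087 CPM in cycling-like cells (−1.69 ± 0.18, adjusted p = 1.7e-06). Rps2 (−1.68), Rpl12 (−1.57) and Rpl15 (−1.49) were also among the lowest. Mouse 2 had the larger drop in both of its libraries. In log2 CPM ratios Rpl3 was at −1.42 in both libraries of mouse 1, and at −2.24 and −1.93 in mouse 2. The fit treats the differences within the 4 libraries as independent, although the libraries come from 2 mice. Its p-values do not allow for that.

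The members least lowered between these classes were Rps27l, Rpl38, Rpl36al, Rps29 and Rpl37a. Rps27l had 651, 638, 544 and 688 CPM in enterocyte-like cells against 725, 816, 753 and 1001 CPM in cycling-like cells (−0.31 ± 0.13, adjusted p = 0.0460, edgeR), and Rpl38 differed by −0.40 ± 0.15. All 5 are among the 26 members of shortest coding length. The knockout effect itself was not shown to differ between the 2 classes: 0 of 78 members and 0% of genes passed the interaction (385 genes at an unadjusted p under 0.05). No member was among those 385 genes. The member median of that difference was 0.11 (all genes −0.03), given as a description because members share libraries and scaling.

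**Figure D5:**
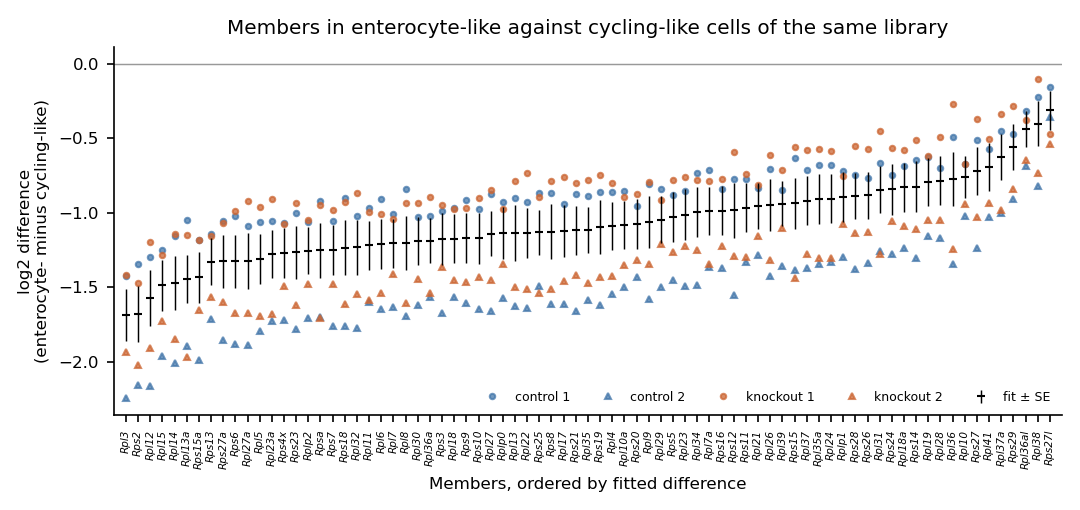
Log2 difference in level between enterocyte-like and cycling-like cells (vertical axis) for 77 members ordered by the fitted value (black bars, ± SE), with 1 point per library (CPM ratio; blue control, orange knockout, circles mouse 1, triangles mouse 2). Every fitted value lies below 0, from −1.69 for Rpl3 to −0.31 for Rps27l.

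Among 2825 other genes, those whose level over the 28 sums of class and library was most like that of the summed members were Eef1b2 (Pearson r = 0.99), an elongation factor subunit, Snrpg and Rack1 (both 0.98), Fbl (0.96) and Rps3a1 (0.95). The member least like the set was Rps27l (0.57). The points share libraries and depth, so these values are descriptions.

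Other genes of protein synthesis were counted in lists chosen for their function. Among ribosomal genes outside the symbol rule, Fau, which encodes a small-subunit protein fused to a ubiquitin-like one, and Rpl22l1, a paralog of Rpl22, fell in cycling-like cells with the block. Fau had 3616 and 3752 CPM across the controls against 2939 and 3121 CPM across the knockouts (−0.32 ± 0.05, adjusted p = 0.00774 with the block, edgeR). Neither passed with the group alone (adjusted p = 0.620 for Fau). Of 16 elongation and TOP mRNA genes tested in the same cells, Eef1a1 and Eef2 fell, against 2.76% of genes, and Nap1l1 rose, against 2.13%, and none passed with the group alone.

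Genes of ribosome production, such as those of nucleolar RNA processing, were counted next. In all cells 22 of 39 rose with the block, against 4.1% of all genes, and none fell. With the group alone 0 passed (0% of genes), and the median change was 0.39 (all genes −0.02). The genes of the list share libraries, so these counts are not of independent observations. Ncl, which encodes nucleolin, had 1081 and 863 CPM across the controls against 1452 and 1390 CPM across the knockouts (0.52 ± 0.10, adjusted p = 0.0319 with the block, edgeR). In cycling-like cells 5 of 39 rose (Ncl, Nhp2, Rrs1, Rrp1b and Wdr12), against 2.13% of genes, and in goblet-like cells 13 of 39, against 3.95%. In stem-like cells none passed, with a median of 0.20. The difference between this list and the members was not tested. Initiation factors (2 of 27 rose in all cells) and mitochondrial ribosomal proteins (3 of 77 rose) were nearer the background of 4.1%.

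Depth, the make-up of the cultures and markers of other cell types moved with these results, and their part in them was not tested. Cycling-like cells had median depths of 38430 and 51715 UMIs in controls and 26804.5 and 24634 in knockouts. All 12 Paneth markers summed to 70884 and 90623 CPM in goblet-like cells of the controls against 45187 and 65586 CPM in those of the knockouts, and the cycling markers to 1252 and 1009 CPM against 1811 and 1803 CPM. Goblet markers summed there to 29621 and 39773 CPM against 24669 and 35485 CPM, below the Paneth markers in every library. The class named goblet-like is thus not cleanly separate from Paneth cells by its markers. In Paneth-like cells the Paneth markers summed to 324780 to 412799 CPM. In cycling-like cells the Paneth markers summed to 972 and 1200 CPM against 532 and 535 CPM, with Mptx2 at 0 in both controls. A list of 6 RNA-quality genes, among them Malat1 and Gm42418, was lower in both knockouts over all cells (11571 and 14297 CPM against 10294 and 10229 CPM) and in goblet-like cells (9304 and 9981 CPM against 8516 and 7039 CPM). It went opposite ways in the mice in cycling-like cells (6489 and 5882 CPM against 6683 and 5327 CPM) and in stem-like cells (5759 and 5151 CPM against 4894 and 5558 CPM).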

How the data were processed

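Single-cell 3' libraries were counted by the authors; the submitters' processing notes list Cell Ranger 3.0.1 and the mm10 build. The matrices name software version 3.0.0, per the file headers. The deposited values are raw UMI counts per gene and barcode. The annotation release, the use of strand and the handling of reads from close copies are not given in the sources used here.

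Barcodes under 500 genes (173) and 70 doublets (Scrublet scores, 0.8% per 1000 barcodes, since its own threshold marked 18) were left out. Cells were clustered with scanpy 1.11.5 (2000 variable genes without ribosomal genes, 30 components, 15 neighbours, resolution 1), and classes were named from marker lists. Counts were summed per class and library and tested over all genes with edgeR 4.0.16 (quasi-likelihood, TMM, adjusted p under 0.05), first by group alone and then with the replicate block; DESeq2 1.42.0 was an alternative. The edgeR script was tested on simulated data. Shares were compared by exact permutation over libraries.

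Same-numbered control and knockout libraries come from the same mouse, per the labels and the mouse tags of the deposited files. Their deviations from the group means correlated with r = 0.660 over genes in all cells, 0.131 in stem-like, 0.531 in cycling-like and 0.374 in goblet-like cells. Named members were the 10 lowest and 5 highest in all cells, the 5 lowest and 5 highest of the class contrast and a list by role. Of the 28 members past the threshold in any set and either fit, the 12 with the smallest p were added. Members and lists were chosen with earlier results of these data known. P-values rest on 2 mice in all, each of which gave 1 control and 1 knockout library. Wilson 95% intervals of the shares were 0.0286 to 0.375 points wide and cover counting error only. Some single-gene results are not reported here, and 1 member is left out of the plots that label every member.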

Additional observations from a re-analysis of the deposited data

Results flagged for a closer look

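In fetal-like cells the share of UMIs from members was higher in the knockout of both mice, while in 5 pairings with another class that class was lower in both. For Paneth-like cells the step in mouse 2 was −0.003 points, practically no change. Set against fetal-like cells, the change in share (knockout minus control) was −3.17 points in crypt base stem-like, −2.93 points in cycling-like and −2.20 points in goblet-like cells. The change in fetal-like cells exceeded that in Paneth-like cells by 2.25 points and that in enteroendocrine-like cells by 1.79 points. These differences were not tested. Fetal-like cells numbered 14 in control 1 and 11 in knockout 1. Their goblet markers stood above those of goblet-like cells in mouse 1, so the contrast with goblet-like cells is not between cleanly separate cell types. In mouse 1 the fetal-like share fell with medians over cells (17.0% to 15.1%) and with ribosomal genes in the clustering (16.6% to 15.9%), so the direction in that mouse depends on these choices.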

How the results depend on the processing

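The replicate block (mouse) raised the count of members called lower from 0 to 1 in all cells, 2 to 8 in stem-like, 0 to 28 in cycling-like, 0 to 13 in goblet-like and 0 to 1 in enteroendocrine-like cells. In all cells the block gave 2 with RLE scaling, DESeq2, no low-count filter or named classes only, and 1 with scaling without the members. In stem-like cells RLE scaling gave 1, no low-count filter 5 and clustering with ribosomal genes 1; with the block these gave 11, 14 and 16, and scaling without the members 6. In cycling-like cells DESeq2 gave 2 and no filter 3; with the block they gave 6 and 31, RLE scaling 32, scaling without the members 34 and clustering with ribosomal genes 39. In goblet-like cells DESeq2 gave 1 and no filter 4; with the block they gave 11 and 20, RLE scaling 13, scaling without the members 11 and clustering with ribosomal genes 24. In Paneth-like cells no filter with the block gave 2, and in enteroendocrine-like cells the block with RLE scaling or with scaling without the members gave 1. The settings that combine a choice with the block were added after the data were seen. Leaving out 1 library, the count ranged from 0 (without control 1) to 9 (without knockout 2) in stem-like and from 0 to 1 in goblet-like cells.

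The all-cell share difference became −1.50 points (exact permutation p = 0.667) at the class mix of the control, an added alternative, and ranged from −1.80 to 2.59 points with 1 library left out. With medians over cells it was −0.0826 points in fetal-like and 0.0510 in enterocyte-like cells. With 1 library left out it ranged from −0.872 to 2.38 in fetal-like, −3.67 to 0.663 in Paneth-like and −3.16 to 2.75 in enterocyte-like cells. Log2 changes in all cells that crossed 0 when 1 library was left out were those of Rps27l (−0.0857 to 0.344), Rplp2 (−0.222 to 0.0174), Rpl5 (−0.12 to 0.29) and Rps6 (−0.0245 to 0.160). The causes were not tested. Small classes, with 10 to 14 cells in a library, limit the depth of the enteroendocrine-like, fetal-like and stem-like sums.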
